A study of Rattus norvegicus with 18 samples.

Results

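The genes examined were the translation initiation and elongation factors on a rat array: every gene with a probe set whose only platform symbol begins with Eif or Eef followed by a digit. This gave 56 genes, 46 named for initiation and 10 for elongation, with the kinases, binding proteins and methyltransferases that carry such a symbol, of 10412 genes with a single-symbol probe set. They were covered by 66 of 15923 probe sets. Each gene was followed by its brightest probe set, and 8 genes had further probe sets, 10 in all, which are given where they differ. A filter on low values, set on the mean over all arrays, left 52 of the 56 genes. Eef1akmt4, Eif2ak2, Eif2ak4 and Eif2d fell under it and were not tested. Another 4 probe sets carried a second symbol and were left out, so Eif3e and Eif5 were not measured here by a probe set of their own, nor was Eif1.

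RNA came from the hippocampus of rats in a study of learning after alcohol exposure before birth. The labels give an alcohol, an isocaloric or a control diet, and a state that is either naive or trained by a procedure abbreviated CFC. Of the 18 arrays, 8 came from the alcohol diet (4 naive, 4 trained), 6 from the isocaloric diet (2 naive, 4 trained) and 4 from the control diet (2 naive, 2 trained). Strain, sex, age, the interval from training to dissection and the litters are not given in the sources used here. Replicates are not stated to be separate animals, so a p-value reflects only how much these samples vary, in part perhaps for technical reasons.

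Translation begins when initiation factors bring the initiator tRNA, the small ribosomal subunit and a capped mRNA together. eIF2 carries the tRNA, eIF2B recharges eIF2, and a set of kinases that phosphorylate eIF2 lowers this step under stress. eIF3 is the large scaffold on the small subunit, and the eIF4 group binds the cap and unwinds the leader of the mRNA. The eEF1 factors then deliver each aminoacyl-tRNA, and eEF2 moves the ribosome along. In the hippocampus this machinery is known for its part in the protein synthesis on which lasting memory depends.

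Start-site regions were read from RefSeq (build GRCr8), from 250 bases before to 50 bases after each annotated start, for the 51 members in that table. They were richer in G and C than the table as a whole, with a median of 60.2% against 51.7%, and held a median of 23 CG dinucleotides against 7. The letters CACGTG, the core of an E-box and its own reverse complement, were found in 11 members (21.6%) and in 7.08% of all 27457 genes. CCGGAAG, an ETS-type core searched on both strands, was found in 17 members (33.3%) against 9.63%. GGGCGG, a GC box, was present in 36 members (70.6%) against 36%. TATAAA occurred in 3 members (5.88%) against 15.3%, and CCAAT in 16 (31.4%) against 39.6%, both strands counted. None of these 5 strings contains another, and a match describes the letters only. The windows of 80 bases below lie upstream of the start of members whose levels changed in a diet comparison and are shown 5′ to 3′ on the gene's strand. In the first 4, capitals mark CACGTG.
Eef2: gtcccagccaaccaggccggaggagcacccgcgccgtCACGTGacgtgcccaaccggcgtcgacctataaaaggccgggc
Eif4e: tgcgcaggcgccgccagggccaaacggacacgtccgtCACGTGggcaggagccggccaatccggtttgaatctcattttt
Eif4h: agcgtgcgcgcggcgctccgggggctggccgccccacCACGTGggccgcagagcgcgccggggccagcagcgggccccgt
Eif5a: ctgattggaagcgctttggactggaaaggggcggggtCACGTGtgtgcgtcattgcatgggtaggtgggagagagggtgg
These windows lie at chr7:9189272-9189351 (minus strand), chr2:229740636-229740715 (plus strand), chr12:27719487-27719566 (plus strand) and chr10:55143385-55143464 (minus strand). The motif ended 70, 74, 162 and 200 bases before the start in that order. Eef2 is among the 3 members with TATAAA, which can be read in its window. In the next 3, capitals mark CCGGAAG or its reverse complement.
Eif3i: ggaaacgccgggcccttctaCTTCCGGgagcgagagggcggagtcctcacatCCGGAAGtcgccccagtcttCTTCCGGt
Eif3m: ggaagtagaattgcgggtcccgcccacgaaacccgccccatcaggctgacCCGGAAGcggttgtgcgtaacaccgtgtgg
Eif4e2: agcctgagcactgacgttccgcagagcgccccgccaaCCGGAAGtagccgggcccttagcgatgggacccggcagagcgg
They lie at chr5:147226911-147226990 (minus strand), chr3:111897194-111897273 (minus strand) and chr9:95333940-95334019 (plus strand). The Eif3i window holds 3 matches, the last ending 1 base before the start, whereas the others hold 1 match each. Members that carry these strings differ in direction below: Eef2 and Eif4h rose and Eif4e fell against control, and Eif4e2 rose where Eif3m fell.

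Levels are log2(signal + 6.06), and differences are on that scale, with a standard error (SE) and a Benjamini-Hochberg adjusted p from limma, called at 0.05. Total signal per array was 2.92e+06 to 3.13e+06, and replicate arrays correlated with each other at 0.952 to 0.985. Neuronal markers (7 of 8 measured) summed to 8424 to 12029 signal units per array and pyramidal markers (5 of 6 measured) to 3288 to 4690. On 4 arrays (alcohol trained 4, alcohol naive 2, isocaloric trained 3, control trained 1) the choroid plexus transcript Ttr was high, and 2 control arrays (naive 1, trained 2) were written with fewer digits. Control naive 2 stood apart for many members, as the values below show. Members varied within groups by a median SD of 0.13, from 0.07 (Eif4b) to 0.29 (Eif4e3), beside a median of 0.16 over all tested probe sets.

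Between the alcohol and isocaloric diets, averaged over training state, 4 of 52 members changed. Eif4a1, the helicase subunit of the cap-binding complex, Eef2, the translocation factor, and Eif3i, a WD-repeat subunit of eIF3, rose with alcohol. Eif1a, annotated as the scanning factor eIF1A, fell. The 4 calls are 7.69% of members, beside 3.06% of all probe sets tested (1.47% higher, 1.59% lower). At an unadjusted p under 0.05 there were 12 members, beside 21.7% of all probe sets. The median difference of the members was 0.01, against -0.02 over all probe sets.

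Eif4a1 was at 9.48, 9.47, 9.58 and 9.55 on the alcohol naive arrays and at 9.55, 9.37, 9.51 and 9.60 on the alcohol trained arrays. It was at 9.20 and 9.28 (isocaloric naive), 9.31, 9.05, 9.12 and 9.12 (isocaloric trained), 9.24 and 9.17 (control naive), and 9.06 and 9.19 (control trained). All 8 alcohol arrays lay above all 10 others. By brightest probe set, Eif4a1 was the one member whose alcohol arrays were set apart, beside 0.441% of all probe sets in either direction. The difference from isocaloric was 0.32 (SE 0.06, 1.25-fold, adjusted p = 0.00752), and that from control was 0.35 (SE 0.06, adjusted p = 0.00133). Its paralogue Eif4a2, the form that predominates in brain, differed by -0.01 (SE 0.05) and -0.10 (SE 0.06), neither called.

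Eef2 was at 10.68, 10.74, 10.57 and 10.40 (alcohol naive) and at 10.68, 10.56, 10.67 and 10.71 (alcohol trained). The isocaloric arrays lay at 10.44 and 10.27 (naive) and 10.43, 10.39, 10.43 and 10.33 (trained), and the control arrays at 10.46, 10.43, 10.30 and 10.27, naive first. Alcohol naive 4 was the one alcohol array within the range of the other diets. Eef2 was higher by 0.25 (SE 0.06, adjusted p = 0.0268) than in isocaloric and by 0.26 (SE 0.06, adjusted p = 0.00895) than in control samples. Eef2k, the kinase that inactivates eEF2, differed by -0.09 (SE 0.14) from isocaloric and was not called.

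Eif3i was at 8.33, 8.44, 8.35 and 8.32 (alcohol naive) and 8.51, 8.34, 8.47 and 8.46 (alcohol trained). It was lowest on the isocaloric naive arrays, 7.87 and 7.95, and reached 8.35, 8.29, 8.20 and 8.27 on the isocaloric trained arrays. Control levels were 8.48 and 8.69 (naive) and 8.10 and 8.30 (trained). The difference between alcohol and isocaloric was 0.31 (SE 0.06, adjusted p = 0.00925), being 0.45 (SE 0.09, adjusted p = 0.0566) in naive samples. Averaged over training state, alcohol and control differed by 0.01 (SE 0.06). The group means of the 2 states differed in opposite directions, with 2 control arrays in each, and this was not tested. The alcohol mean was below control in naive samples (8.36 against 8.59) and above it in trained samples (8.45 against 8.20).

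Eif1a fell from 6.87 and 6.83 (isocaloric naive) to 6.12, 6.22, 6.28 and 6.60 (alcohol naive), and from 6.45, 6.55, 6.33 and 6.65 (isocaloric trained) to 5.62, 5.90, 5.69 and 5.79 (alcohol trained). The control arrays were at 6.79 and 6.13 (naive) and 6.83 and 7.06 (trained). The 4 alcohol trained arrays were the lowest of all 18. The averaged difference was -0.65 (SE 0.11, 1.56-fold lower, adjusted p = 0.00611), and against control it was -0.68 (SE 0.12, adjusted p = 0.00137). Eif1ax, which encodes a near-identical eIF1A protein, differed by -0.05 (SE 0.10) between alcohol and isocaloric and by -0.27 (SE 0.11, adjusted p = 0.0912) between alcohol and control. Whether probes of these 2 genes share signal was not tested.

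**Figure D1:**
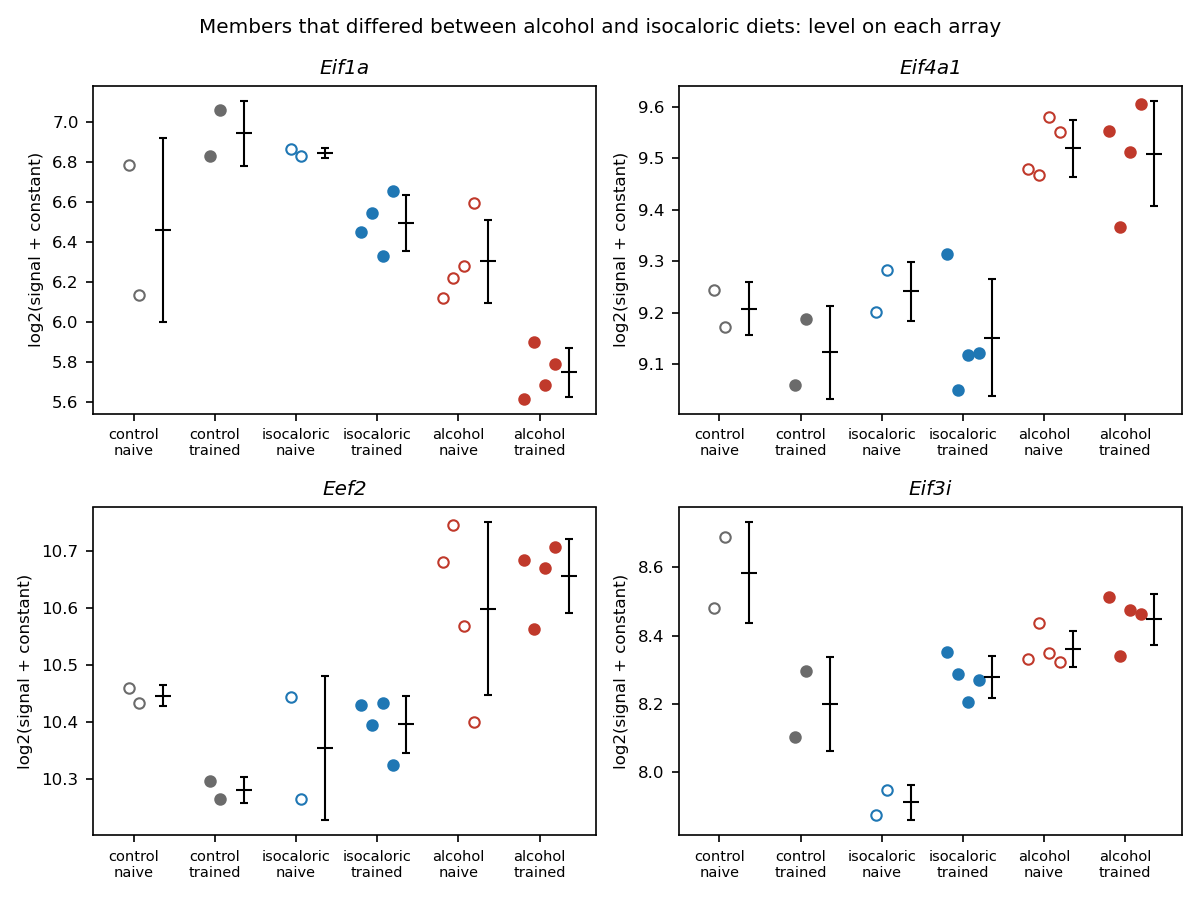
Level of Eif1a, Eif4a1, Eef2 and Eif3i on each array as log2(signal + constant), by diet and training state (open points naive, filled points trained, grey control, blue isocaloric, red alcohol; bars are mean and SD). The vertical axes do not start at 0. Eif4a1 is higher on all 8 alcohol arrays than on the 10 others, and Eif3i is lowest on the 2 isocaloric naive arrays.

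Other members were not called. Eif4h, which stimulates the eIF4A helicase, was at 10.01 to 10.24 on the alcohol arrays and 9.77 to 9.998 on the isocaloric arrays, with no overlap. Its difference of 0.22 (SE 0.06) had an adjusted p of 0.054. Eif4a1 and Eif4h were the 2 of 52 tested members whose alcohol and isocaloric arrays did not overlap (3.85%, beside 1.28% of all probe sets). Eif2ak2, under the filter, did not overlap either and was lower in alcohol. Eif5a, which relieves stalled ribosomes, differed by 0.26 (SE 0.08, adjusted p = 0.0881). Eif1b (0.15, SE 0.06), Eif3f (0.16, SE 0.06), Eif3l (0.20, SE 0.07) and Eef1a2, the eEF1A form of neurons (0.24, SE 0.11), had positive differences that were not called. Eif2s3, the gamma subunit of eIF2, had a difference of -0.28 (SE 0.12).

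These 4 calls leaned on few arrays. Without isocaloric naive 1, or without isocaloric naive 2, 0 members were called, although the differences kept their signs, and the share over all probe sets fell alike to 0.294% and 0.158%. Eef2 also lost its call without alcohol trained 3 or alcohol naive 3, and under quantile normalisation. The log2 ratio of 3′ to 5′ Gapdh probe sets, a sign of RNA quality, averaged 0.26 (SD 0.12, n = 8) in alcohol, 0.13 (SD 0.04, n = 6) in isocaloric and 0.26 (SD 0.07, n = 4) in control samples. With this ratio in the model 0 members were called against isocaloric (11 had an unadjusted p under 0.05) beside 0.263% of all probe sets, whereas 11 of 52 were called against control, beside 20.3%. Without the 4 arrays high in Ttr, 1 was called, a fall, beside 0.462%. Without control naive 1 or control naive 2, which enter through the shared estimate of spread, 7 were called, beside 6.84% and 6.82%. Of the cell type lists, the 1 member called between alcohol and isocaloric was Aldoc of the astrocyte list, with a rise of 0.36 (SE 0.08, 1 of 7 tested); 0 of 7 neuron, 4 pyramidal, 6 oligodendrocyte, 5 microglia, 4 endothelial, 6 choroid plexus and 1 blood markers tested were called.

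In trained samples Eif1a fell by 0.75 (SE 0.14, adjusted p = 0.0291) and Eif4a1 rose by 0.36 (SE 0.07, adjusted p = 0.0348), 2 of 52 members (3.85%) beside 0.399% of all probe sets. Eef2 (0.26, SE 0.07), Eif1b (0.23, SE 0.07) and Eif4g1, the eIF4F scaffold (0.25, SE 0.10), followed without passing. Both trained calls are fragile. Without alcohol trained 1 or 3, or without isocaloric trained 2, 3 or 4, 0 remained. The same held without the 4 arrays high in Ttr. It also held with the replicate number as a block, the Gapdh ratio or the actin ratio in the model. In these fits the share of all probe sets called fell alike, to between 0.021% and 0.2%. Eif4a1 was also lost with only the groups compared, and without alcohol trained 4, alcohol naive 3 or either isocaloric naive array. Without isocaloric trained 1, Eif1a lost its call. Without control naive 1 or control naive 2, 3 members were called, beside 1.12% and 1.13% of all probe sets. In naive samples limma called 0 members, beside 0.0735% of all probe sets, and 9 had an unadjusted p under 0.05, beside 12.4%. After Eif3i these were led by Eif4h (0.30, SE 0.09), Eif4a1 (0.28, SE 0.09), Eif1a (-0.54, SE 0.17) and Eif2s3 (-0.54, SE 0.19). Without control naive 1 or control naive 2, 1 naive difference was called, a rise, beside 0.588% and 0.567% of all probe sets. The call in 1 state and not in the other is no difference between them: the interaction for Eif1a was -0.20 and for Eif4a1 0.08, neither called.

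Against the control diet, the alcohol samples differed in 12 of 52 members, 5 higher and 7 lower. This is 23.1% of members, beside 19.9% of all probe sets (11.3% higher, 8.61% lower), so the share lies close to the background. The alcohol arrays are those used above, and both comparisons with control share the same 4 control arrays. Those that rose were Eif4a1, Eif4h, Eif4e2, Eef2 and Eef1a2, and those that fell were Eif1a, Eif2s3, Eif3j, Eif3m, Eif4e, Eif4g2 and Eef1e1. Of the 52 members 34 had a negative difference, with a median of -0.08 against -0.0008 over all probe sets.

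Among the cap-binding and helicase genes, 3 rose and 2 fell of 15 tested, beside 11.3% of all probe sets higher and 8.61% lower. Eif4e2, a cap-binding homologue that represses bound mRNAs, was at 7.37, 6.96, 7.25 and 6.99 (alcohol naive), 7.10, 7.22, 7.21 and 7.08 (alcohol trained), 6.82 and 6.66 (control naive), and 6.60 and 6.83 (control trained). Its alcohol and control arrays did not overlap, as for Eif4a1; these are 2 members (3.85%) beside 6.38% of all probe sets. The difference was 0.42 (SE 0.09, 1.34-fold, adjusted p = 0.00399). Isocaloric arrays, at 6.84 to 7.16, also lay above the control arrays, with a difference of 0.29 (SE 0.10, adjusted p = 0.0705). Eif4h rose by 0.22 (SE 0.07, adjusted p = 0.0261). Eif4e, the cap-binding protein itself, fell by 0.24 (SE 0.08, adjusted p = 0.0326), and Eif4g2, a scaffold homologue without a site for eIF4E, fell by 0.30 (SE 0.10, adjusted p = 0.0486). The inhibitors of eIF4E were not called: Eif4ebp1 differed by -0.18 (SE 0.08) and Eif4ebp2 by 0.20 (SE 0.09).

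Among eIF3 subunits Eif3m and Eif3j fell and 0 rose, 2 of 11 (18.2%), beside 19.9% of all probe sets called in either direction. Eif3m was at 8.43, 8.77, 8.69 and 8.71 (alcohol naive), 8.42, 8.52, 8.52 and 8.12 (alcohol trained), 8.69 and 9.59 (control naive), and 9.01 and 9.03 (control trained). Control naive 2 was far above the rest. The difference was -0.56 (SE 0.12, adjusted p = 0.0041). For Eif3j, a loosely bound subunit that aids mRNA entry, it was -0.24 (SE 0.07, adjusted p = 0.0286). Eif2s3 fell by 0.38 (SE 0.13, adjusted p = 0.0497), while its partners Eif2s1 (-0.23, SE 0.08, adjusted p = 0.064) and Eif2s2 (-0.17, SE 0.08) were not called. Eif1a, given above, was the one eIF1-family member called.

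In the elongation group Eef2 and Eef1a2 rose and Eef1e1 fell, 3 of 9, beside 19.9% of all probe sets called. Eef1a2 was at 11.48, 11.14, 11.25 and 11.19 (alcohol naive), 11.17, 11.12, 11.26 and 11.42 (alcohol trained), 11.41 and 10.42 (control naive), and 10.85 and 10.80 (control trained). Control naive 1 lay among the alcohol arrays and control naive 2 far below them. The difference was 0.38 (SE 0.12, adjusted p = 0.0338). Eef1e1, a scaffold of the multisynthetase complex, fell by 0.27 (SE 0.08, adjusted p = 0.0184). Eef1a1, the widely expressed eEF1A, differed by -0.07 (SE 0.08), and its exchange factors Eef1b2, Eef1d and Eef1g by -0.15 (SE 0.06), 0.02 (SE 0.07) and -0.09 (SE 0.07), none called.

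**Figure D2:**
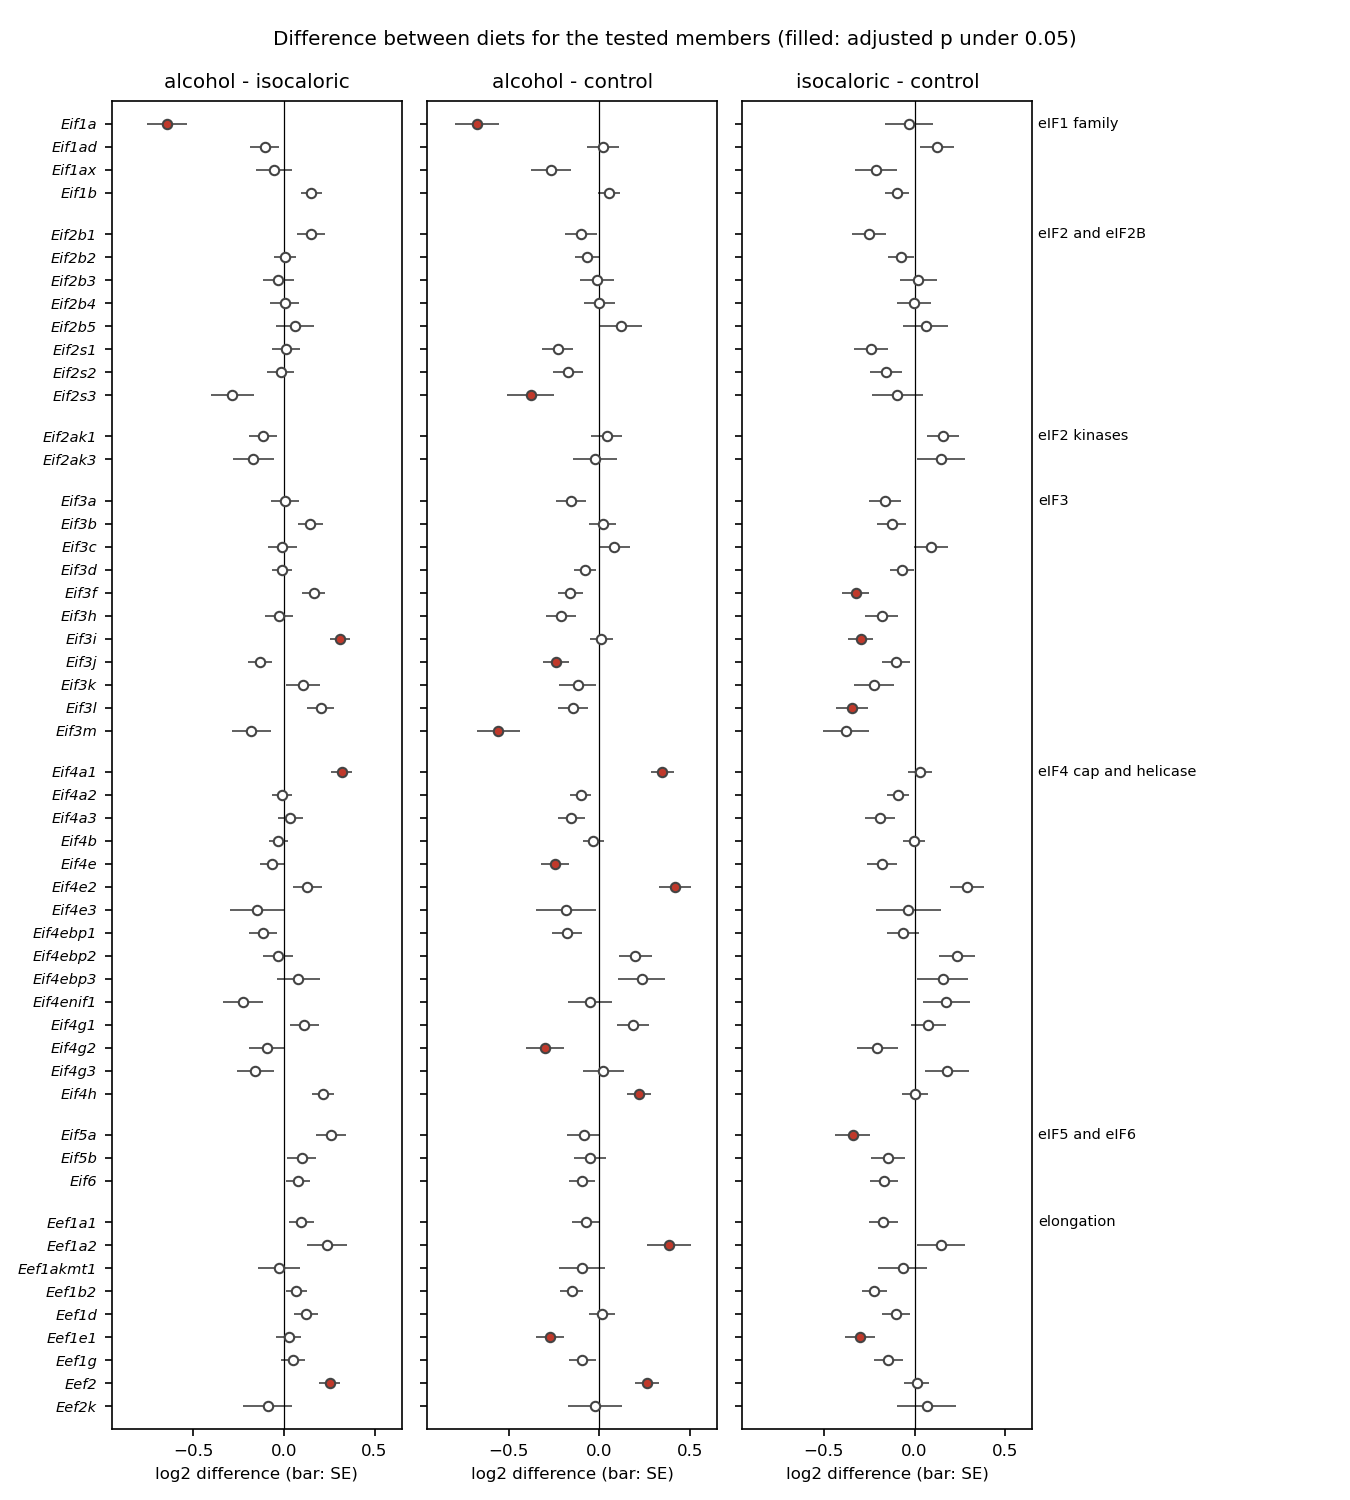
Log2 difference between diets, averaged over training state, for the 52 tested members grouped by role (points with SE bars; filled where the adjusted p was under 0.05). Of these, 4 are filled for alcohol minus isocaloric, 12 for alcohol minus control and 5, all negative, for isocaloric minus control.

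The isocaloric diet differed from control in 5 members, all lower: Eif3f, Eif3i, Eif3l, Eif5a and Eef1e1. This is 9.62% of members, beside 7.05% of all probe sets in either direction and 2.8% called lower. Of 52 members 35 had a negative difference, with a median of -0.09 against 0.02 over all probe sets. The eIF3 subunits were negative in 10 of 11, with a median of -0.18, and 3 of 11 fell.

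Eif3f was at 9.37 and 9.11 (isocaloric naive), 9.47, 9.42, 9.37 and 9.28 (isocaloric trained), 9.71 and 9.89 (control naive), and 9.39 and 9.56 (control trained). Its difference was -0.33 (SE 0.07, adjusted p = 0.017). Eif3l was at 8.12 and 8.10, then 8.29, 8.52, 8.30 and 8.22, against 8.44, 8.88, 8.48 and 8.48 in control samples, with a difference of -0.35 (SE 0.09, adjusted p = 0.0271). In both genes control naive 2 was the highest and isocaloric naive 2 the lowest of these arrays. The fall of Eif3i, -0.30 (SE 0.07, adjusted p = 0.0162), lay in the naive samples: the 2 naive isocaloric arrays lay below every control array, and the 4 trained ones within the control range. Over the 11 subunits, the mean departure from each gene's own average was -0.12 on both isocaloric naive arrays, 0.08 and 0.33 on the control naive arrays and -0.15 to 0.08 on the other 14.

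Eif5a was at 9.47 and 9.36 (isocaloric naive), 9.64, 9.52, 9.44 and 9.49 (isocaloric trained), 9.69 and 10.35 (control naive), and 9.57 and 9.64 (control trained), a difference of -0.34 (SE 0.10, adjusted p = 0.0425). Again control naive 2 was the extreme array. Eef1e1, at 7.95 to 8.22 on isocaloric and 8.27 to 8.66 on control arrays, did not overlap and fell by 0.30 (SE 0.08, adjusted p = 0.0344). Its fall against control was 0.27 in alcohol samples. Eif2b1, a subunit of the eIF2B exchange factor (-0.25, SE 0.09), and Eef1b2 (-0.22, SE 0.07, adjusted p = 0.0533) also did not overlap and were not called. With Eif4e2, which was higher, these made 4 members without overlap (7.69%), beside 5.85% of all probe sets.

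**Figure D3:**
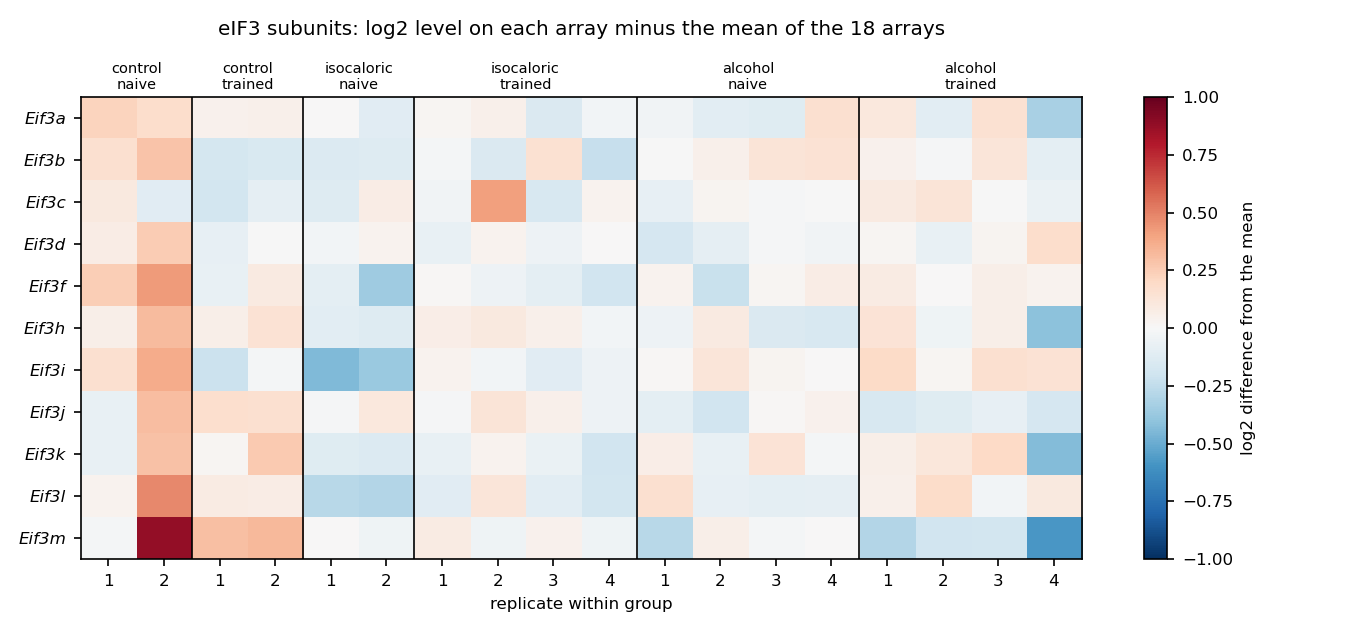
Level of 11 eIF3 subunits on each of the 18 arrays, as the log2 difference from that subunit's mean over all arrays (red higher, blue lower; columns are replicates within the 6 groups). Control naive 2 is high for most subunits, and both isocaloric naive arrays are low for Eif3i and Eif3l.

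The comparisons with control moved with single arrays and with other measures. The share of all probe sets called moved with each count of members. Without control naive 1, 24 members were called between alcohol and control (31.8% of all probe sets) and 18 between isocaloric and control (24.8%). Without control naive 2 these counts were 5 (6.09%) and 0 (1.17%). Without control trained 1 they were 6 (9.44%) and 2 (1.76%), and without control trained 2 they were 6 (10.8%) and 0 (2.35%). Without the 4 arrays high in Ttr they were 4 (5.97%) and 0 (0.704%). Without the 2 control arrays written with fewer digits, which leaves a lone array in each control group, they were 20 (25.9%) and 16 (19.2%). Without isocaloric naive 1 the isocaloric count was 2 (2.76%) and without isocaloric naive 2 it was 0 (0.851%). Without isocaloric trained 2 or 4 it was 3 (6.24% and 4.63%). In alcohol samples against control, Eif1a and Eif3m were called under every alternative in which they were tested. The stricter filter, at the 60th percentile, left out Eif1a, whose mean level lay at the 51st. Eef2 was called in all but 2 alternatives, and Eif4a1 and Eif4e2 in all but 1. Eif2s3 and Eif4g2, close to the threshold, lost their calls in 23 of 32 and 22 of 33 alternatives. Beside the control arrays, Eef1a2 lost its call without alcohol trained 4 or alcohol naive 1, and Eif4e without alcohol trained 2 or alcohol naive 2. Between isocaloric and control all 5 calls were lost at least once. Of 32 alternatives, Eif5a lost its call in 19, Eef1e1 in 11, Eif3l in 9, Eif3i in 7 and Eif3f in 6. The log2 3′ to 5′ ratio of actin averaged 0.64 (SD 0.09, n = 4) in control samples, 0.40 in alcohol and 0.41 in isocaloric samples. With it in the model 3 members were called for alcohol (3.31% of all probe sets) and 0 for isocaloric (0.399%). Endothelial markers (6 of 7 measured) summed to 469 to 511 signal units on control arrays, 761 to 943 on alcohol arrays and 777 to 916 on isocaloric arrays, and 4 of 4 tested rose in both comparisons. The blood marker Hbb fell by 0.56 in alcohol and by 0.50 in isocaloric samples. The other lists had at most 1 call each, beside 19.9% of all probe sets for alcohol and 7.05% for isocaloric. In alcohol samples Syn1 (1 of 7 neuron markers tested) and Nrgn (1 of 4 pyramidal) rose. Aqp4 (1 of 7 astrocyte) and Cldn11 (1 of 6 oligodendrocyte) fell there. The neuron list median was -0.0006, against -0.0008 over all probe sets. In isocaloric samples Slc1a3 (1 of 7 astrocyte) and C1qa (1 of 5 microglia) fell. Of the choroid plexus list 0 of 6 were called in either. The part of these cell types in the results was not tested. In whole tissue, fewer cells of a type and less RNA per cell cannot be told apart.

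Second probe sets were tested for 6 genes and did not always follow the first. Probe sets of 1 gene can read different ends or forms of its transcripts. The second Eif4e probe set was at 6.23, 6.34, 5.997 and 6.13 (alcohol naive), 6.13, 6.31, 6.07 and 6.02 (alcohol trained), 6.82 and 6.83 (isocaloric naive), and 6.45, 6.63, 6.37 and 6.56 (isocaloric trained). Control arrays read 6.71, 6.79, 6.57 and 6.59. All 8 alcohol arrays lay below the 10 others, beside 0.441% of all probe sets that did not overlap in either direction. The fall was 0.51 (SE 0.08, 1.43-fold, adjusted p = 0.00525) against isocaloric and 0.51 (SE 0.09, adjusted p = 0.0013) against control. The brighter Eif4e probe set differed by -0.06 (SE 0.07) from isocaloric, so the size of the Eif4e difference depends on the probe set.

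Eif4b, a cofactor of the eIF4A helicase, differed from control by -0.03 (SE 0.06) on its brighter probe set and rose by 0.40 (SE 0.07, adjusted p = 0.00134) on the second, at 7.52 to 7.79 on alcohol and 7.20 to 7.36 on control arrays. For Eif4g1 the brighter probe set differed by 0.19 (SE 0.09, adjusted p = 0.14), and the second rose by 0.90 (SE 0.22, adjusted p = 0.00948), with control naive 2 lowest at 4.99. The fall of Eif4g2 was not called on its second probe set (-0.11, SE 0.07). Against isocaloric, the second Eef1a1 probe set differed by 0.31 (SE 0.10, adjusted p = 0.0939) and the first by 0.10 (SE 0.07). Eif2ak1, the haem-regulated eIF2 kinase, differed by -0.12 (SE 0.08) and 0.04 (SE 0.06) on its probe sets.

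**Figure D4:**
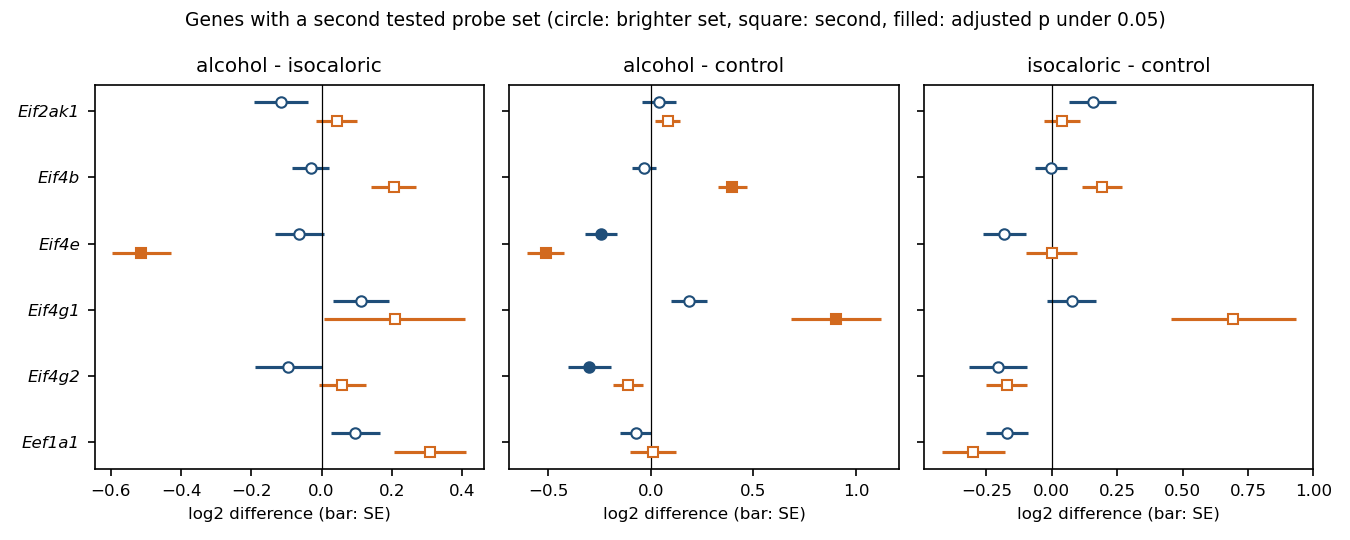
Log2 difference between diets for the brighter (circle) and second (square) probe set of 6 genes, with SE bars and filled symbols where the adjusted p was under 0.05; the 3 panels have their own horizontal scales. Both Eif4e probe sets fell against control, and the second alone fell against isocaloric.

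Averaged over diets, limma called 0 members between trained and naive samples, beside 0.0105% of all probe sets, and 2 members had an unadjusted p under 0.05 (5.95% of all probe sets did). These were Eif4b, -0.15 (SE 0.05, adjusted p = 0.758), and Eef1e1, -0.14 (SE 0.06). For Eif4b 10 of 10 trained arrays lay below the naive mean of their diet, but its second probe set differed by only -0.02. Eif3b (-0.13, SE 0.06), Eif4a2 (-0.09, SE 0.05) and Eif5b, the subunit-joining GTPase (0.13, SE 0.07), came next. Of 52 members 38 had a negative difference, with a median of -0.04 against -0.0021 over all probe sets. Within the alcohol diet, Eef1a1 and Eif1b were higher and Eef1e1 and Eif1a lower on all 4 trained than on all 4 naive arrays, 4 members (7.69%) beside 5.34% of all probe sets. Within the isocaloric diet, with 4 trained against 2 naive arrays, 19 members (36.5%) did not overlap, beside 22.9%; Eif1a was again lower and Eef1a1 higher on the trained arrays. In the control diet the group means went the other way, with Eif1a at 6.46 (naive) and 6.95 (trained) and Eef1a1 at 11.93 and 11.67. The second Eef1a1 probe set averaged 11.83 on alcohol naive and 11.80 on alcohol trained arrays. These within-diet differences were not tested. Over 3 diets the Eif1a difference was -0.14 (SE 0.10).

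The effect of alcohol did not pass the test of a difference between trained and naive samples for any member: limma called 0, beside 0% of all probe sets, and 3 members had an unadjusted p under 0.05, beside 4.21%. Those were Eif3i (-0.28, SE 0.11), Eef1d (-0.30, SE 0.13) and Eif2s3 (0.51, SE 0.24). Eif4ebp1 (0.30, SE 0.15) and Eif2b3 (-0.34, SE 0.17) followed.

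Further named members were not called in these comparisons. Eif2ak3, the kinase of the endoplasmic reticulum, differed by -0.17 (SE 0.11) between alcohol and isocaloric and by -0.02 (SE 0.12) between alcohol and control. The interferon-induced Eif2ak2, under the filter, was at 4.53 to 5.12 on alcohol, 5.16 to 5.76 on isocaloric and 4.84 to 6.02 on control arrays, and the amino acid sensor Eif2ak4 at 5.13 to 5.78, 5.20 to 5.87 and 4.84 to 6.07. Eif2b5, the catalytic subunit of eIF2B, differed by 0.06 (SE 0.10) and 0.12 (SE 0.11), and Eif6, which keeps ribosomal subunits apart, by 0.08 (SE 0.07) and -0.09 (SE 0.07). Eif5b differed by 0.10 (SE 0.08) and -0.05 (SE 0.09). Of the 8 tested eIF2 and eIF2B genes, 0 were called between alcohol and isocaloric and 1 had an unadjusted p under 0.05. Over all probe sets these shares were 3.06% and 21.7%.

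Among regulators of translation outside the family, 2 of 19 tested genes of an mTOR and kinase list changed between alcohol and isocaloric. Over all probe sets 3.06% were called, and the list median was 0.02. Without isocaloric naive 1 or isocaloric naive 2 the share of all probe sets fell to 0.294% and 0.158%. Whether calls on this and the following lists held there is not given here. Mknk2, a kinase of eIF4E, rose by 0.40 (SE 0.08, adjusted p = 0.0177), and by 0.57 (SE 0.09, adjusted p = 0.00073) against control. Rictor, of mTOR complex 2, fell by 0.34 (SE 0.09, adjusted p = 0.0448), and was higher by 0.49 (SE 0.11, adjusted p = 0.0131) in isocaloric than in control samples. Against control 4 rose and 1 fell in alcohol samples, beside 11.3% of all probe sets higher and 8.61% lower. Pdcd4, an inhibitor of eIF4A, rose by 0.51 (SE 0.12, adjusted p = 0.00904), and Cpeb1 by 0.31 and Tsc2 by 0.23; Pdpk1 fell by 0.21. In isocaloric samples Pdcd4 rose by 0.49 (SE 0.13, adjusted p = 0.034). Thus 2 of 19 rose there, beside 7.05% of all probe sets called in either direction.

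In a list of poly(A)-binding, termination and stress-control genes (21 tested), Impact, an inhibitor of Eif2ak4 signalling, fell by 0.28 (SE 0.06, adjusted p = 0.0222) between alcohol and isocaloric and was the 1 call. Over all probe sets 3.06% were called in that comparison. Against control, 5 fell in alcohol samples and 0 rose, beside 8.61% of all probe sets lower and 11.3% higher. The list median there was -0.12, against -0.0008 over all probe sets. The 5 that fell were Ddx6 (-0.35), Bzw1 (-0.34), Etf1, the release factor (-0.30), Paip1 (-0.29) and Paip2 (-0.21). In isocaloric samples Paip2 fell by 0.22 and Impact rose by 0.24, beside 7.05% of all probe sets called in either direction. Of 21 cytosolic tRNA synthetase genes tested, Farsa was the 1 call between alcohol and isocaloric, again beside 3.06% of all probe sets. Its rise was 0.44 (SE 0.11, adjusted p = 0.0391). Against control Farsa rose by 0.38, Wars1 by 0.26 and Qars1 by 0.22 in alcohol samples. Eef1e1, which is also on this list, fell by 0.27. These 3 rises and 1 fall stand beside 11.3% of all probe sets higher and 8.61% lower. In isocaloric samples Farsb fell by 0.54 and Eef1e1 by 0.30, beside 2.8% of all probe sets lower. Of 3 mitochondrial translation factors tested, 0 were called in any of these comparisons.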

How the data were processed

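The series holds 18 Affymetrix arrays of rat hippocampus RNA. The authors deposited linear intensity values, 1 for each probe set and array. Trimmed means close to 150 on every array show a common scaling. MAS5 is named, per the submitters' processing notes, for 2 samples (control naive 1 and control trained 2), and for the others the algorithm was not stated in the labels. Scaling can hide a change shared by all transcripts.

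A constant of 6.06 (percentile 10 of the data) was added before log2, which understates changes of dim probe sets. Probe sets with a mean under the 40th percentile and 57 Affymetrix controls were left out, and 9520 were tested with limma 3.58.1 in R 4.3.3: 6 group means, 1 shared spread, eBayes with trend, two-sided, adjusted over all probe sets. The code was tested on simulated data. All 56 members matched the RefSeq table by gene ID. The number of arrays limits the precision.

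Every member past the threshold, the 5 smallest p of each comparison and a list of core factors are named. Members and lists were chosen with earlier results of these data known. Alternatives covered the constant, the filter, the normalisation, array weights, RNA quality and Ttr as covariates, the replicate block and leaving out each array; leaving out the 4 arrays high in Ttr was added after seeing the data. Python 3.11.15, numpy 2.4.6, pandas 2.3.3 and matplotlib 3.10.9 served for tables and figures.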

Additional observations from a re-analysis of the deposited data

Results flagged for a closer look

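In groups of 4 arrays, 1 array stood far from the 3 others for 7 of 108 combinations of a named member and a group. Chance alone gives about 1 such array in 20 groups. Isocaloric trained 2 was the array in 3 of the 7. There Eif2b5 was at 5.93 (others 6.41 to 6.49), Eif4ebp2 at 7.37 (others 7.61 to 7.64) and Eif4g2 at 9.75 (others 9.30 to 9.38). Eif4e2 was at 6.84 on isocaloric trained 3, against 6.973 to 6.999 on its neighbours. Eif2s1 was at 7.93 on alcohol trained 4, against 8.15 to 8.17. On alcohol naive 1 Eif3l was at 8.56, against 8.30 to 8.32, and on alcohol naive 3 Eif5b was at 7.09, against 6.93 to 6.94.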

How the results depend on the processing

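Under the alternatives run, 0 of the calls changed direction. Between alcohol and isocaloric (4 members called), the count was 7 with only the groups compared, 9 with array weights, 7 without the 2 arrays written with fewer digits, 0 with the Gapdh ratio as covariate and 1 without the 4 arrays high in Ttr; leaving out 1 array gave 0 to 7. In naive samples (0) it was 1 with quantile normalisation, 6 with array weights and 1 without the fewer-digit arrays, and 0 to 1 leaving out 1 array. In trained samples (2) it was 1 with a stricter filter, 1 with only the groups compared, and 0 with the Gapdh ratio, with the replicate block, with the actin ratio or without the Ttr-high arrays, and 0 to 3 leaving out 1 array. Between alcohol and control (12) it was 6 with only the groups compared, 5 with array weights, 20 without the fewer-digit arrays, 3 with the actin ratio and 4 without the Ttr-high arrays, and 5 to 24 leaving out 1 array. Between isocaloric and control (5) it was 2 with the replicate block, 0 with only the groups compared, 16 without the fewer-digit arrays, 8 with the Gapdh ratio, 0 with the actin ratio and 0 without the Ttr-high arrays, and 0 to 18 leaving out 1 array. Training and interaction counts were 0 under every alternative. The share of all probe sets called moved too. Between alcohol and isocaloric it was 3.06%, then 5.78% with only the groups compared and 12.7% with array weights. In naive samples it was 0.0735%, and 5.79% with array weights. In trained samples it was 0.399%, and 0.0735% with the replicate block. Between alcohol and control it was 19.9%, and 10.3% with array weights. Between isocaloric and control it was 7.05%, and 6.69% with the Gapdh ratio. Only the groups compared, and leaving out arrays, use fewer arrays. For the other settings the cause was not tested. Without the fewer-digit arrays each control group is a lone array, assumed to vary like the other groups, so a higher count does not show a stronger effect.

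Of same-numbered arrays in different groups, 4 of 36 pairs deviated together with a correlation over 0.1 (median -0.03). Of pairs with other numbers, 22 of 96 did (median 0.01). The labels state no pairing, and these values cannot exclude one, because deviations within a group of 2 arrays mirror each other. With the replicate block 4 members were called between alcohol and isocaloric (2.24% of all probe sets) and 8 between alcohol and control (12%). With 2 arrays in each control group and in the isocaloric naive group, the comparisons with control and those in naive samples rest on the fewest arrays.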
